A study of Mus musculus with 8 samples.

Results

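Fragments of tRNA Gly-GCC, the glycine tRNA with the anticodon GCC, were examined in pancreatic β-cells that had been sorted from db/db mice and from wild type controls. All sequences that the deposited table names for Gly-GCC were taken, whatever their length or position, which gave 43 of its 2226 sequences of tRNA-derived fragments (tRFs). The db/db mice had the background BKS.Cg-Dock7m +/+ LeprdbJ, with a mutated leptin receptor gene that leads to overeating, obesity and diabetes. The wild type mice had the background BKS.Cg-Dock7m +/+, so that the Dock7m allele is part of the strain name of both groups. All were male and 8 weeks old, and each genotype gave 4 libraries. For each preparation islets of several mice were pooled, more for wild type than for db/db, and the β-cells were sorted by their autofluorescence. The table holds tRFs alone, so that insulin and other β-cell markers could not be checked here. In such bulk libraries, fewer cells that hold a fragment and less of it per cell cannot be told apart.

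A tRNA is cut within its loops by nucleases, and angiogenin, which cuts the anticodon loop, is the best known of them under stress. The piece from the first base to the cut is a 5′tRF, called a tiRNA if the cut lies in the anticodon loop. The piece that reaches the CCA added to every mature tRNA is a 3′tRF, and a piece that touches neither end is internal. The 5′ piece of tRNA Gly-GCC is among the most studied of these RNAs, in part because it is carried in sperm and changes there with the diet of the father. The study reported 5′tRFs of Gly-GCC as raised in β-cells and islet macrophages of db/db mice. It found them unchanged in ob/ob and diet-induced obese mice, whose blood glucose was normal. In the β-cell line MIN6, knockdown of angiogenin did not attenuate their induction by palmitate. The comparison asked here is which pieces of this tRNA differ between the genotypes.

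The sequences show that 2 forms of the tRNA were present, which differ by 1 base near each end. Such forms with the same anticodon are called isodecoders. Counted from base 1 of the mature tRNA, the substitution was G5T in the 5′ fragments and C66A in the 3′ fragments. In the folded tRNA these bases face each other in the acceptor stem. The longest fragments of each end and isodecoder are shown here, with the base that differs in a capital and T for U as in the table.
5′ 30 nt, G5: gcatGggtggttcagtggtagaattctcgc
5′ 30 nt, T5: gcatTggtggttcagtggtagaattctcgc
3′ 30 nt, C66: gcccgggttcgattcccggccCatgcacca
3′ 30 nt, A66: gcccgggttcgattcccggccAatgcacca

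The most abundant fragment of each class is shown next. In the internal one the capitals are the anticodon.
5′ 25 nt, G5: gcatGggtggttcagtggtagaatt
3′ 24 nt, C66: gttcgattcccggccCatgcacca
internal 23 nt: cctGCCacgcgggaggcccgggt

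The fragments were placed on a mature tRNA of 74 bases. This length came from RefSeq, which gives every gene of this tRNA 71 bases, to which CCA is added. The 3′ fragments were set from the 3′ end, and overlaps joined most internal fragments to them. This joined stretch meets the 5′ fragments at base 30 alone, too short an overlap to place it, so that its positions rest on that length. The anticodon lies at bases 33 to 35 in a loop from base 31 to base 37. The 5′ fragments of 30 nt therefore end at the last base before this loop, and since the table stops at 30 nt, tiRNAs cut inside the loop were not analysed here.

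Of the 43 sequences, 19 were 5′ fragments, 16 were 3′ fragments and 8 were internal. The 5′ set held 14 sequences with G5, of every length from 16 to 30 nt apart from 19 nt, and 5 with T5, of 22, 24, 25, 28 and 30 nt. The 3′ set held 15 sequences with C66, 1 for each length from 16 to 30 nt, and a single one with A66, of 30 nt. All 16 ended in the complete CCA, and 0 of the 43 ended 1 to 3 bases short of it. Of the internal fragments, 5 ended at base 52, where they started at bases 30, 31, 32, 33 and 37. The other internal fragments covered bases 33 to 48, 38 to 64 and 8 to 25, and the last of these lies inside the 5′ fragments.

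For the A66 isodecoder the name in the table is not decisive. A set of 14 sequences of 16 to 29 nt that the table names for Gly-CCC, another glycine tRNA, are also the ends of the Gly-GCC fragment with A66, since both tRNAs share these bases. No sequence under another name begins a 5′ fragment of Gly-GCC. Since each sequence has a single name, a 5′ fragment that also matches another tRNA would not be seen by this. The shared 24-nt sequence differs from the C66 fragment of 24 nt only at the capital.
Gly-CCC and Gly-GCC 24 nt, A66: gttcgattcccggccAatgcacca

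RefSeq lists 14 genes for this tRNA on the mouse build GRCm38.p6, and the fragments were not assigned to single genes. Chromosome 1 holds 5 of them, n-TGgcc3 at chr1:74816747-74816817 and a cluster of 4 from n-TGgcc4 at chr1:171044985-171045055 to n-TGgcc14 at chr1:171081876-171081946. Chromosome 8 holds 3, of which n-TGgcc11 (chr8:110630553-110630623) and n-TGgcc10 (chr8:110631246-110631316) lie within Vac14 and n-TGgcc2 (chr8:111062561-111062631) within Clec18a. Chromosome 13 holds 2, n-TGgcc7 at chr13:21710580-21710650 and n-TGgcc6 at chr13:23517203-23517273. The remaining genes lie on chromosomes 2, 3, 4 and 11. Of these, n-TGgcc9 (chr3:84229011-84229081) is within Trim2 and n-TGgcc8 (chr2:57182394-57182464) within 4930555B11Rik, annotated as a processed transcript. None of the 14 overlaps an exon of the GENCODE M21 annotation, so that those within other genes are intronic.

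The libraries held between 582165 and 2946290 tRF counts, each a unique molecule, and all pairs of libraries of a genotype differed by more than counting error. Gly-GCC is a small part of them. Its 43 fragments had 509, 459, 717 and 1377 counts in wild type libraries 1 to 4, and 4102, 1446, 5186 and 3998 counts in db/db libraries 1 to 4. Per sequence and library the median was 11 counts in wild type and 43.5 in db/db, and single sequences had between 0 and 567. The wild type values of most single fragments thus rest on few molecules.

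Gly-GCC took a larger share of the tRF counts in db/db β-cells. The share was 0.0717%, 0.0683%, 0.114% and 0.109% in the wild type libraries, and 0.520%, 0.248%, 0.176% and 0.414% in the db/db libraries. The lowest db/db library stood above the highest wild type library. The means were 0.0906% ± 0.0239 and 0.340% ± 0.156 (SD, n = 4 per genotype), a ratio of 3.75. A two-sided exact permutation test over all 70 assignments of the libraries gave p = 0.0286, the smallest p that 4 against 4 libraries allow, and 0.0571 after Benjamini-Hochberg adjustment over the 10 shares, lengths and ratios compared here. This does not pass the threshold of 0.05. Relative to all small RNA counts, whose totals follow from the RPM values, the share was 0.0351% ± 0.00687 for wild type against 0.0909% ± 0.0140 for db/db (p = 0.0286, exact permutation test). By counts, Gly-GCC ranked 41st of the 48 names of the table in wild type and 38th in db/db.

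The sums of 5′ and of 3′ fragments were both higher in db/db β-cells, and the sum of internal fragments did not pass the test. Levels are CPM, counts per 1e6 counts of the scaled tRF total of a library. The 5′ sum was 333, 291, 674 and 477 CPM in wild type and 1722, 1271, 834 and 2078 CPM in db/db. All db/db values lay above all wild type values, with db/db 3 closest to them. The 5′ sum was 3.33-fold higher, a log2 fold change of 1.73 (SE 0.35, adjusted p = 0.00112 by quasi-likelihood in edgeR, with Benjamini-Hochberg correction over all 110 families). The 3′ sum was 249, 236, 311 and 550.0 CPM in wild type and 2338, 1307, 1531 and 1555 CPM in db/db. Here wild type 4 was the highest control and db/db 1 the highest of all, and the genotypes again did not overlap. This was a 4.99-fold difference, or 2.32 on the log2 scale (SE 0.34, edgeR, adjusted p = 3.04e-05).

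Internal fragments stood at 125, 77.8, 131 and 98.1 CPM in wild type and at 154, 133, 97.3 and 147 CPM in db/db. These ranges overlapped, and the log2 fold change of 0.30 (SE 0.29, edgeR, adjusted p = 0.563) was within the spread between libraries. Of all 110 families (the sums per tRNA and class), 3.64% were called higher at an adjusted p below 0.1 and a fold change above 2. Of the 4 families called higher, 2 were those of 5′ and 3′ Gly-GCC, which had the largest log2 fold changes of all families tested. When the deposited log2 values set the library sizes, the 5′ sum lost its call (log2 fold change 0.97, edgeR, adjusted p = 0.320), whereas the 3′ sum kept it (1.66, edgeR, adjusted p = 0.0972). That scaling moved the median family to −0.70, and relative to that median the sums were higher by 1.66 and 2.35, against 1.75 and 2.34 with the scaling used here.

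**Figure D1:**
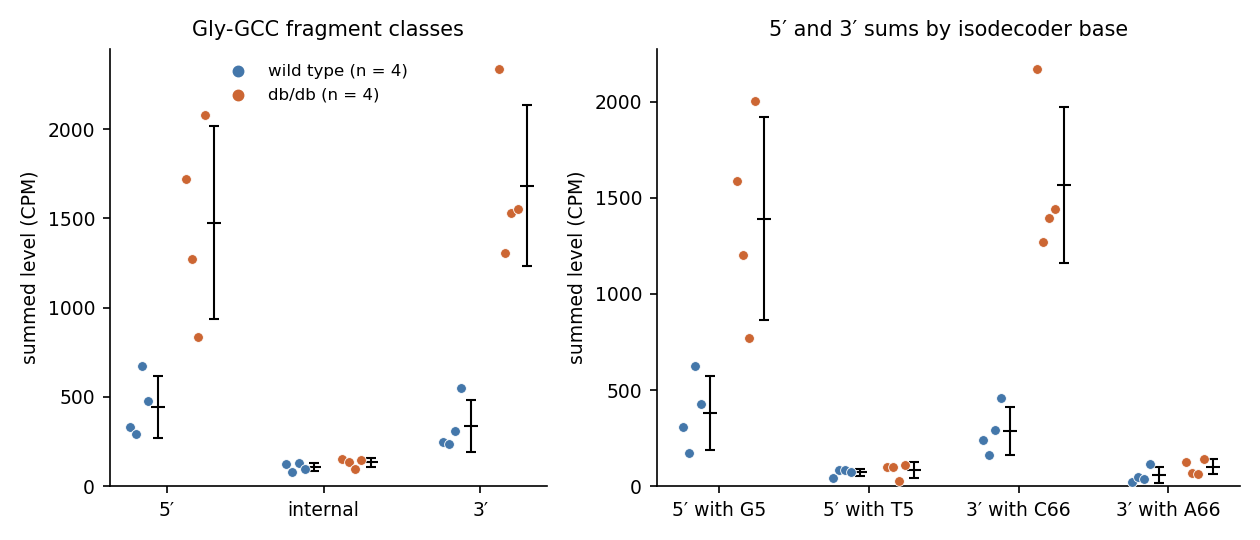
Summed levels of Gly-GCC fragments in CPM (linear axis) per library, by class on the left and by isodecoder base on the right, with black bars for the mean and SD of 4 libraries. In the 5′ and 3′ sums and in those with G5 and C66 the db/db points lie above all wild type points, with a log2 fold change of 2.45 for the C66 sum and 0.21 for the T5 sum.

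Internal fragments made up a smaller part of the Gly-GCC counts in db/db, by a difference that did not pass the threshold of 0.05 after adjustment. Their share was 17.7%, 12.9%, 11.7% and 8.71% in wild type, and 3.66%, 4.91%, 3.95% and 3.88% in db/db. The genotypes did not overlap (means 12.7% ± 3.73 and 4.10% ± 0.555, SD, n = 4, exact permutation test, p = 0.0286, adjusted 0.0571). The internal sum itself (107.9 CPM in wild type and 132.8 CPM in db/db) did not pass the test, and its log2 fold change was −0.26 with library sizes from the RPM values and −0.48 with those from the deposited log2 values. Relative to the median family it was 0.32 with the scaling used here, 0.32 and 0.21 with these others, so that it did not turn against the other families. Such shares do not depend on how libraries are scaled to each other. The 5′ fragments made up 49.5% ± 7.66 of the counts in wild type against 44.1% ± 8.97 in db/db (p = 0.343, exact permutation test). The 3′ fragments made up 37.7% ± 8.74 against 51.8% ± 9.09 (p = 0.0857, exact permutation test). The log2 ratio of 5′ to 3′ counts ran from −0.20 to 1.11 in wild type and from −0.88 to 0.42 in db/db (p = 0.171, exact permutation test), so that a difference in the balance of the 2 ends was not shown.

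Split by the base that differs, an analysis added once the data had been seen, the sums with G5 and with C66 were called higher and those with T5 and with A66 were not. That the isodecoders differ in their change is not shown by this, and the shares given further on do not decide it either. The 5′ fragments with G5 summed to 306, 173, 627 and 425 CPM in wild type and to 1589, 1204, 769 and 2004 CPM in db/db. On the log2 scale the G5 sum was higher by 1.86 (SE 0.39, edgeR, adjusted p = 0.00113), with no overlap, but it lost its call with library sizes from the deposited log2 values (1.20, edgeR, adjusted p = 0.213). The 5′ fragments with T5 summed to 43.7, 83.8, 85.6 and 73.4 CPM in wild type and to 101, 102, 24.9 and 109.6 CPM in db/db. Of these db/db libraries 3 lay above every wild type library and db/db 3 lay below them all. The T5 sum had a log2 fold change of 0.21 (SE 0.40, edgeR, adjusted p = 0.752), and was −0.92 with those same library sizes. Relative to the median family, which that scaling moved to −0.70, it was 0.24 with the scaling used here and −0.23 with the other, while the G5 sum was 1.89 and 1.90.

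The 3′ fragments with C66 summed to 239, 161, 289.7 and 457 CPM in wild type and to 2168, 1273, 1393 and 1440.4 CPM in db/db. With no overlap, they were higher by 2.45 on the log2 scale (SE 0.35, edgeR, adjusted p = 1.32e-05). This sum was called in every scaling, tool, filter and left-out library tried for it, with adjusted p-values up to 0.0569. The only A66 fragment under the name Gly-GCC, of 30 nt, was at 21.9, 47.7, 39.5 and 118 CPM in wild type and 127, 69.3, 65.6 and 141 CPM in db/db. It overlapped between the genotypes, with a log2 fold change of 0.80 (SE 0.43, edgeR, adjusted p = 0.269). Without wild type 4, the highest wild type library, it was called at 1.46 (edgeR, adjusted p = 0.0213), and with library sizes from the deposited log2 values it was −0.026. Relative to the median family it was 0.83 and, with those library sizes, 0.67. In this split, 3.57% of the 112 families were called higher.

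The 14 shared A66 sequences named for Gly-CCC had smaller log2 fold changes than the fragments with C66. Their sum was 3219, 2671, 3597 and 6091 CPM in wild type and 9375, 5369, 6522 and 6786 CPM in db/db. Only wild type 4 reached into the db/db range. The log2 fold change of 0.85 (SE 0.32, edgeR, adjusted p = 0.0754) was under 2-fold and was not called, and without wild type 4 it was 1.15 and was called. It was 0.33 with library sizes from the RPM values (edgeR, adjusted p = 0.689) and 0.18 with those from the deposited log2 values (edgeR, adjusted p = 0.898). These scalings also moved the median family, to −0.58 and −0.70. Of the 14 sequences 1 was called higher, of 22 nt (1.07, SE 0.34, edgeR, adjusted p = 0.0389), a share near the 5.57% of all 1832 sequences tested, and all 14 had positive log2 fold changes between 0.47 and 1.07, with a median of 0.62. Adding the shared sequences to the 3′ sum of Gly-GCC, which they outweigh, lowered its log2 fold change from 2.32 to 1.05 (SE 0.33, edgeR, adjusted p = 0.0248), still called.

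Within each library the bases were also compared by their shares of counts. Among 5′ counts, G5 made up 87.5%, 67.4%, 88.0% and 85.3% in wild type and 94.0%, 92.2%, 96.9% and 94.8% in db/db. The genotypes did not overlap, and wild type 2 stood apart from its group. The difference was 12.4 percentage points (exact permutation test, p = 0.0286, adjusted 0.0571), which does not pass the threshold of 0.05, and 7.55 points without wild type 2. Among 3′ counts with C66 or A66, the shared sequences included, C66 made up 6.84%, 5.61%, 7.28% and 6.84% in wild type and 18.5%, 18.98%, 17.7% and 17.2% in db/db. Nearly all of the A66 counts are of sequences named Gly-CCC, whose sum averaged 3895 CPM in wild type against 56.7 CPM for the A66 fragment named Gly-GCC. This share therefore largely sets Gly-GCC fragments with C66 against sequences that may come from Gly-CCC, and it does not compare the isodecoders of Gly-GCC alone. Within each genotype these values lay close together, with means of 6.64% ± 0.719 and 18.1% ± 0.801 (SD, n = 4). The difference of 11.5 percentage points gave the smallest possible p in the two-sided exact permutation test (p = 0.0286, not adjusted), in a measure chosen after the data had been seen.

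**Figure D2:**
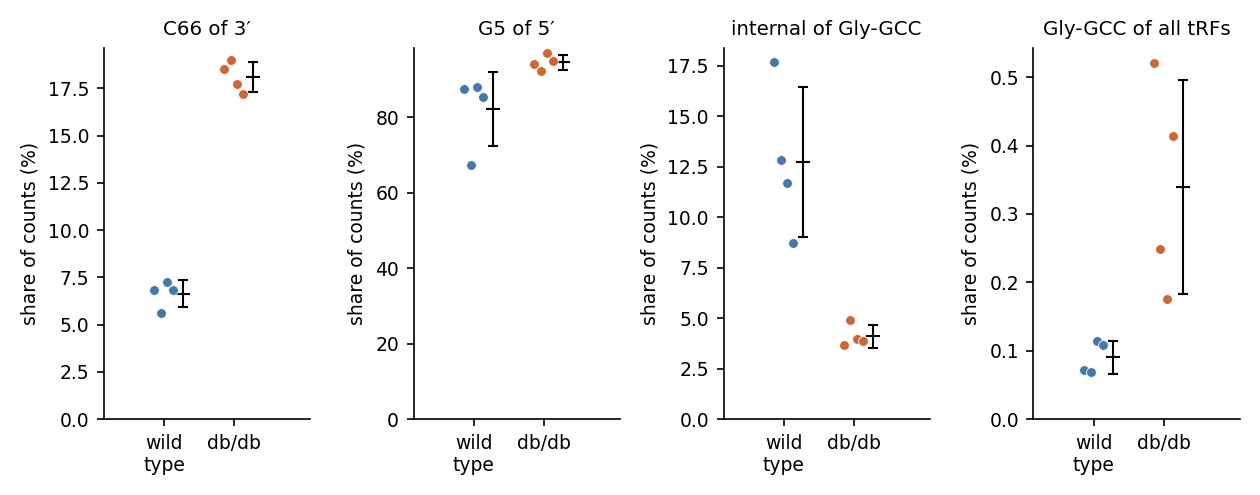
Shares of counts per library in percent, each axis starting at 0, with black bars for the mean and SD of 4 libraries per genotype: C66 among 3′ ends with C66 or A66 (most A66 ends are named Gly-CCC), G5 among 5′ fragments, internal among Gly-GCC fragments, and Gly-GCC among all tRFs. In all 4 panels the genotypes do not overlap, and the C66 share runs from 5.61% to 7.28% in wild type and from 17.2% to 18.98% in db/db.

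At the same length, the ratio of C66 to A66 has a sequence named Gly-CCC as its denominator from 16 to 29 nt. At 24 nt, the length of the most abundant C66 fragment, it was 0.048 to 0.094 in wild type and 0.170 to 0.228 in db/db. At 30 nt, the only length where both bases carry the name Gly-GCC, it was 0.042 to 0.200 in wild type and 0.145 to 0.444 in db/db, which overlap. The ratio of G5 to T5 at 25 nt was 1.28 to 4.59 in wild type and 8.05 to 15.9 in db/db, without overlap. At 22, 24, 28 and 30 nt it overlapped between the genotypes. T5 fragments had at most 37 counts in a library, so that their ratios are coarse.

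Of the single sequences, 32 of 43 had enough counts for a test, and 23 of these were called higher and 0 lower, with 9 not called. Over all 1832 sequences tested, 5.57% were called higher and 9.44% lower. With library sizes from the deposited log2 values, 2 of the 32 were called higher, the C66 fragments of 22 and 26 nt, and 14 of all 1832 sequences. Every other call of a single Gly-GCC fragment given here was lost with that scaling, which moved the median sequence to −0.51. The 11 named fragments that lost it kept log2 fold changes of 0.96 to 2.21, with SEs of 0.64 to 0.80 in place of 0.38 to 0.57. Relative to the median sequence these were 1.47 to 2.71, against 1.60 to 2.63 with the scaling used here. Of the 3 tested members with a lower fitted level in db/db, 0 had an unadjusted p under 0.05, and DESeq2 and the likelihood-ratio test of edgeR called 0 of them too. Many Gly-GCC fragments passed the filter on low counts only through the db/db libraries, which favours higher calls. Of the 11 members with at least 10 counts in every wild type library, 7 were called higher and 0 lower, and the share among all such sequences was not counted. The 11 members without a test had between 56 and 188 counts over the 8 libraries. Among them 8 were 5′ and 3 internal, and 9 had the higher mean in db/db. The genotypes did not overlap in 19 of the 32 tested, against 17.1% of all sequences tested and 6.99% with db/db higher, nor in 2 of the 11 untested.

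By isodecoder, 15 fragments with C66, 1 with A66, 9 with G5 and 2 with T5 were tested, of which 15, 0, 8 and 0 were called higher. Over all 1832 sequences tested 5.57% were called higher, so that the counts of 0 for A66 and T5 are near that share. Of the 15 with C66, however, only 4 had at least 10 counts in every wild type library, so these counts do not compare the isodecoders. Among fragments with that many wild type counts, 4 of 4 with C66, 0 of 1 with A66, 3 of 4 with G5 and 0 of 1 with T5 were called higher. The share among all sequences with that many wild type counts was not counted. Of the 5 internal fragments tested, 0 were called. Among the A66, T5 and internal fragments tested, 0 had an unadjusted p under 0.05 in edgeR, and DESeq2 and the likelihood-ratio test called 0.

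**Figure D3:**
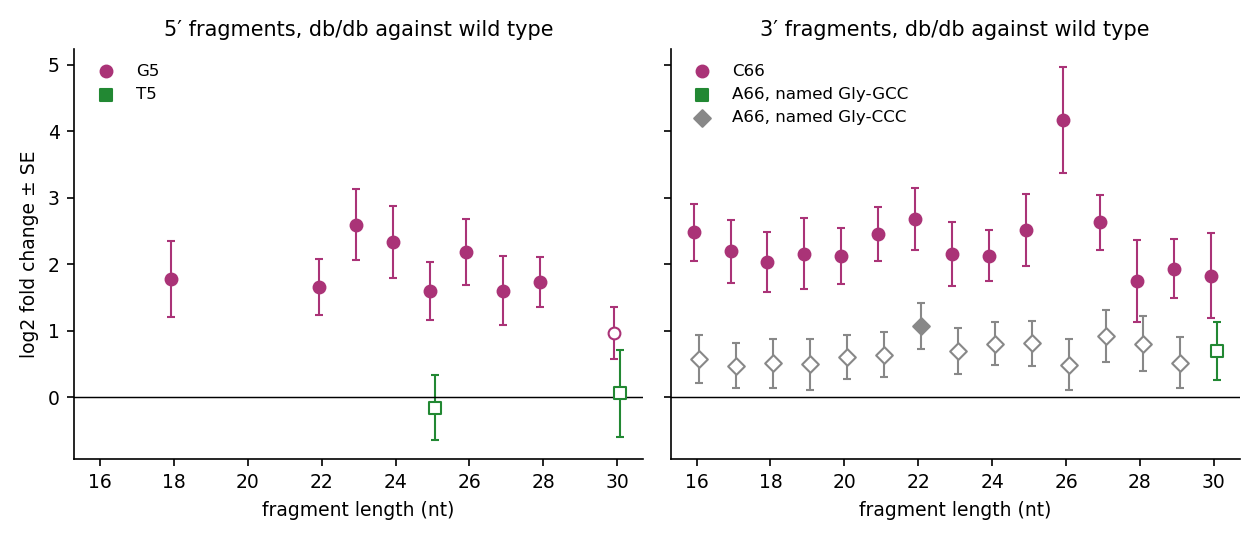
Log2 fold change (db/db against wild type, vertical bars SE) of each tested fragment by its length in nt, for 5′ fragments on the left and 3′ fragments on the right. Filled symbols were called and open ones were not. Fragments with C66 lie between 1.75 and 4.17, above the shared A66 sequences named Gly-CCC, which lie between 0.47 and 1.07, and those with T5 lie near 0.

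Among the 5′ fragments, the most abundant was that of 25 nt with G5, which ends just before the anticodon stem. It was at 123, 31.1, 169.6 and 66.4 CPM in wild type and at 342, 276, 172 and 383 CPM in db/db. The lowest db/db library, db/db 3, lay just above the highest wild type library, wild type 3. This gave a log2 fold change of 1.60 (SE 0.44, edgeR, adjusted p = 0.0126). The fragment of the same length with T5 was at 33.8, 24.4, 36.9 and 26.3 CPM in wild type and at 35.7, 34.3, 10.8 and 29.3 CPM in db/db, with a log2 fold change of −0.16 (SE 0.49, edgeR, adjusted p = 0.887).

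Longer 5′ fragments, from 26 to 30 nt, include the lengths that the study followed. The G5 fragment of 28 nt was at 60.5, 29.8, 80.6 and 71.8 CPM in wild type and at 214, 179, 170.1 and 247 CPM in db/db, without overlap (log2 fold change 1.74, SE 0.38, edgeR, adjusted p = 0.00155). That of 26 nt was at 19.6, 10.8, 65.5 and 33.2 CPM in wild type and at 181, 112, 69.0 and 222 CPM in db/db (2.18, SE 0.50, edgeR, adjusted p = 0.00255). Its genotypes were separated only narrowly, between wild type 3 and db/db 3. For 27 nt the values were 14.2, 13.5, 50.4 and 25.5 CPM against 89.8, 48.7, 32.4 and 143 CPM, which overlap. It was called (1.60, SE 0.52, edgeR, adjusted p = 0.0428), but not without wild type 1, wild type 2 or db/db 4 (1.44, 1.35 and 1.20), nor with library sizes from the RPM values (1.31, edgeR, adjusted p = 0.142) or from the log2 values (1.07, edgeR, adjusted p = 0.486). Neither the 26-nt nor the 27-nt fragment had 10 counts in every wild type library. High db/db counts may thus have helped both pass the filter.

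The G5 fragment of 30 nt, which ends at the last base before the anticodon loop, was the only tested one with G5 that was not called. It was at 44.5, 60.9, 101 and 74.1 CPM in wild type and at 141, 95.7, 93.6 and 217 CPM in db/db. Wild type 3 overlapped with db/db 2 and db/db 3, with a log2 fold change of 0.96 (SE 0.39, edgeR, adjusted p = 0.134). It was called when wild type 3, db/db 2 or db/db 3 was left out (1.22, 1.17 and 1.16). Its T5 counterpart was at 7.12, 23.01, 20.2 and 14.7 CPM in wild type and 21.3, 21.7, 1.66 and 25.8 CPM in db/db (0.06, SE 0.65, edgeR, adjusted p = 0.971). The G5 fragment of 29 nt had 1, 1, 5 and 13 counts in wild type and 50, 14, 26 and 72 in db/db. It was not tested, since db/db 3, the deepest library, was low as well and fewer than 4 libraries reached the minimum of the filter. The T5 fragment of 28 nt was not tested either, with 3, 9, 10 and 13 counts against 22, 3, 11 and 9.

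The largest log2 fold changes among the called 5′ fragments were at 23 and 24 nt. None of the G5 fragments of 18, 23 and 24 nt had 10 counts in every wild type library. High db/db counts may thus have helped them pass the filter. The G5 fragment of 23 nt had 5, 7, 5 and 8 counts in wild type and 59, 30, 47 and 78 in db/db, with levels of 8.24 ± 1.44 and 50.0 ± 21.3 CPM (log2 fold change 2.60, SE 0.54, edgeR, adjusted p = 0.00108). That of 24 nt was at 21.7 ± 15.6 and 108 ± 62.2 CPM (2.34, SE 0.54, edgeR, adjusted p = 0.0031), where wild type 3 overlapped with db/db 3. The 18-nt fragment with G5 was at 9.54 ± 4.30 and 33.8 ± 17.6 CPM (1.77, SE 0.57, edgeR, adjusted p = 0.0409). It lost its call without wild type 2, db/db 1 or db/db 4, at 1.59, 1.68 and 1.499, and with library sizes from the RPM values (1.28, edgeR, adjusted p = 0.198) or from the log2 values (0.96, edgeR, adjusted p = 0.509).

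Among the 3′ fragments, those with C66 of 24, 27 and 16 nt were the most abundant. The fragment of 24 nt, shown above, was at 60.5, 24.4, 45.3 and 66.4 CPM in wild type and at 256, 200.3, 236 and 171 CPM in db/db. All db/db libraries were at least 2-fold above every wild type library, with a log2 fold change of 2.13 (SE 0.38, edgeR, adjusted p = 0.000255). That of 27 nt was at 28.5, 17.6, 26.9 and 48.7 CPM against 247, 139, 144 and 237 CPM (2.63, SE 0.41, edgeR, adjusted p = 7.03e-05). The shortest, of 16 nt, was at 40.9, 12.2, 42.0 and 36.3 CPM against 276, 152, 173 and 131 CPM (2.48, SE 0.43, edgeR, adjusted p = 0.000163). With library sizes from the deposited log2 values all of these stayed higher but lost their call, at 1.83, 2.12 and 2.21 for 24, 27 and 16 nt (edgeR, adjusted p = 0.229, 0.112 and 0.101).

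Fragments of 22, 25 and 26 nt with C66 are given with the same limit, since none had 10 counts in every wild type library and high db/db counts helped them pass the filter. The 22-nt fragment was at 13.9 ± 4.89 CPM in wild type and 90.6 ± 37.4 CPM in db/db (log2 fold change 2.68, SE 0.47, edgeR, adjusted p = 0.00019). The 25-nt fragment was at 8.59 ± 5.18 and 51.6 ± 13.2 CPM (2.51, SE 0.54, edgeR, adjusted p = 0.00144). For 26 nt the wild type libraries had 0, 0, 0 and 5 counts and the db/db libraries 42, 16, 42 and 26. Its fitted log2 fold change of 4.17 (SE 0.79, edgeR, adjusted p = 0.000432) rests on the 5 counts of wild type 4. Without that library the fit gave 7.78, a value that has no interpretation as a fold because all remaining wild type libraries were at 0.

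**Figure D4:**
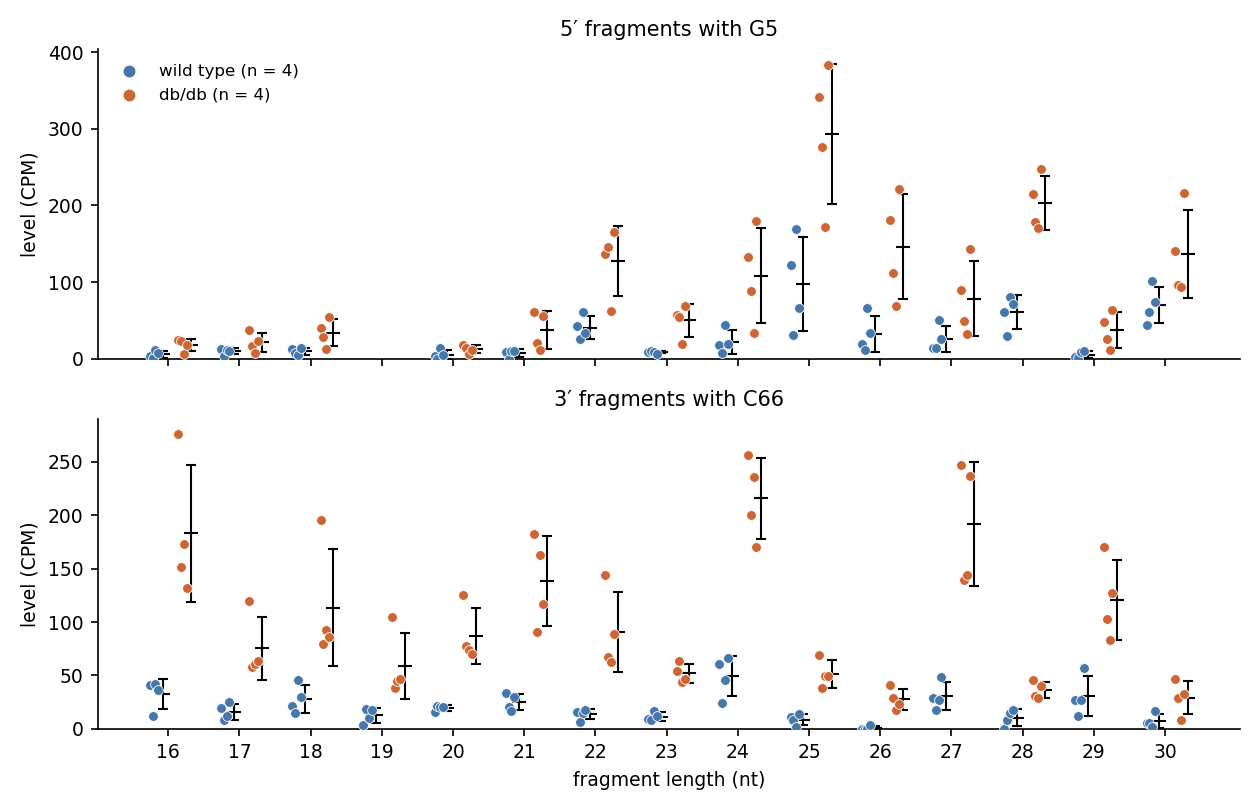
Level in CPM (linear axis) of each 5′ fragment with G5 and each 3′ fragment with C66 by length in nt, with a point per library and black bars for the mean and SD of 4 libraries. In both genotypes the highest 5′ mean is at 25 nt and the highest 3′ mean at 24 nt.

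No difference in mean fragment length between the genotypes passed the test. The 5′ fragments had a count-weighted mean length of 25.6 ± 0.367 nt for wild type and of 25.4 ± 0.364 nt for db/db (SD, n = 4, p = 0.343, exact permutation test). The 3′ fragments had 23.6 ± 0.914 nt and 22.9 ± 0.543 nt (exact permutation test, p = 0.229). By length group, 3.14% of the 255 groups of all tRNAs were called higher, and all 3 groups of 5′ and all 3 of 3′ Gly-GCC were among them. For 3′ fragments the log2 fold change was 2.38 at 16 to 20 nt, 2.48 at 21 to 25 nt and 1.96 at 26 to 30 nt (SE 0.34, 0.32 and 0.39). For 5′ fragments it was 1.61, 1.72 and 1.63 (SE 0.47, 0.38 and 0.37), of which the shortest group overlapped between genotypes and lost its call without db/db 1 (1.39, edgeR, adjusted p = 0.128) and with library sizes from the RPM values (1.16, edgeR, adjusted p = 0.121). With library sizes from the deposited log2 values 5 of the 6 groups lost their call (edgeR, adjusted p from 0.107 to 0.525), and only 3′ fragments of 21 to 25 nt kept it (1.94, edgeR, adjusted p = 0.0858).

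The 25-nt fragment took 23.02% ± 8.16 of the G5 counts in wild type against 22.99% ± 1.79 in db/db. That of the 30-nt fragment ran from 11.9% to 30.2% in wild type and from 8.48% to 13.2% in db/db, which overlap. In the C66 counts the 24-nt fragment took 16.3% ± 3.23 in wild type against 15.1% ± 2.98 in db/db, and the 27-nt fragment took 10.01% ± 1.21 against 13.2% ± 3.13.

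Internal fragments were low in both genotypes. The most abundant, from base 30 to base 52 across the anticodon loop, was at 67.6, 23.01, 31.9 and 15.4 CPM in wild type and at 35.7, 48.7, 35.8 and 35.5 CPM in db/db. Wild type 1 was the highest of all libraries here, with a log2 fold change of 0.19 (SE 0.49, edgeR, adjusted p = 0.856). The fragment from base 31 was at 15.05 ± 12.9 and 18.9 ± 4.53 CPM (0.39, SE 0.59, edgeR, adjusted p = 0.752), and without wild type 1 its log2 fold change was 1.19 (edgeR, adjusted p = 0.283). That from base 33, which begins with the anticodon, was at 15.4 ± 9.20 and 14.7 ± 4.73 CPM (−0.04, SE 0.57, edgeR, adjusted p = 0.976). The 18-nt fragment inside the 5′ end (bases 8 to 25), which both isodecoders share, was at 10.5 ± 4.42 and 11.2 ± 6.36 CPM (0.03, SE 0.67, edgeR, adjusted p = 0.985).

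The 5′ fragments of Gly-GCC were also set against those of Glu-CTC and Asp-GTC, which the study named with them. Within each library, the log2 ratio of 5′ Gly-GCC to 5′ Glu-CTC counts was −0.73, −1.33, −0.36 and −0.96 in wild type and 1.56, 1.52, 1.16 and 1.85 in db/db. By the class rule used here, 5′ fragments of Glu-CTC thus outnumbered those of Gly-GCC in every wild type library and were outnumbered in every db/db library. The means differed by 2.37 (−0.85 ± 0.40 and 1.52 ± 0.28, SD, n = 4, exact permutation test, p = 0.0286, adjusted 0.0571). The ratio to 5′ Asp-GTC averaged −3.92 ± 0.36 in wild type against −2.53 ± 0.24 in db/db, a difference of 1.39 without overlap (exact permutation test, p = 0.0286, adjusted 0.0571). Neither passes the threshold of 0.05, and both ratios are independent of the scaling between libraries. The 5′ sum of Glu-CTC itself went from 769.5 ± 165 to 494 ± 103 CPM (log2 fold change −0.64, SE 0.29, edgeR, adjusted p = 0.166) and that of Asp-GTC from 6663 ± 2457 to 8392 ± 2727 CPM (0.33, SE 0.33, edgeR, adjusted p = 0.563), and neither was called. The study reported 5′tRFs of Glu-CTC as induced in db/db β-cells. It used single sequences and qPCR, unlike this sum over all lengths. The sum of Glu-CTC fragments classed as internal went from 2215 ± 1229 to 4185 ± 1226 CPM (0.92, SE 0.37, edgeR, adjusted p = 0.0982) and was not called. Whether some of these belong to the 5′ end was not tested.

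**Figure D5:**
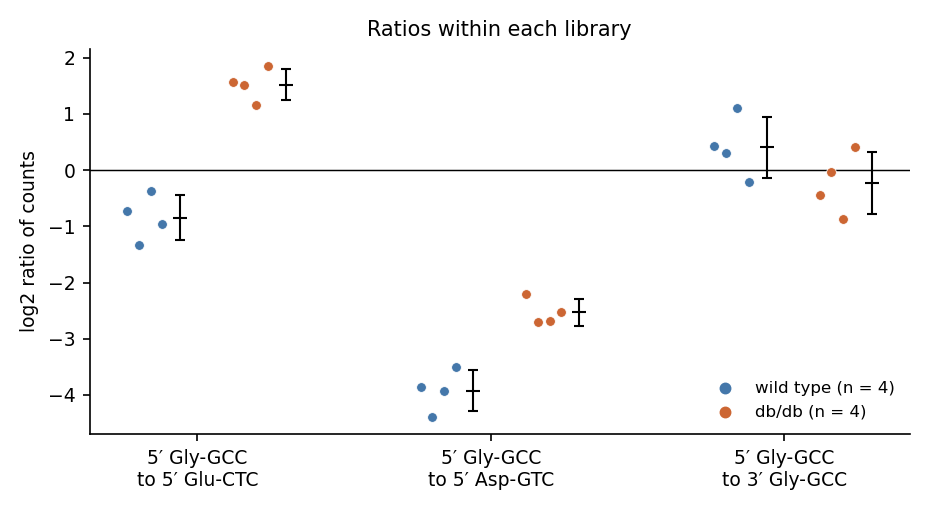
Log2 ratio of counts within each library for 5′ Gly-GCC to 5′ Glu-CTC, to 5′ Asp-GTC and to 3′ Gly-GCC, with a point per library and black bars for the mean and SD of 4 libraries. The ratio to Glu-CTC is below 0 in all wild type libraries and above 0 in all db/db libraries, while the ratio of 5′ to 3′ Gly-GCC overlaps between the genotypes.

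Among the other glycine tRNAs, Gly-ACC, Gly-CCC and Gly-TCC, 0 of 9 sums of 5′, internal or 3′ fragments were called in edgeR, and 2 had an unadjusted p under 0.05. Over all 110 families 3.64% were called higher, and the share called lower was not counted. A count of 0 of 9 is near that share and by itself sets no contrast with Gly-GCC. DESeq2 and the likelihood-ratio test called 0 as well. Their 5′ sums had log2 fold changes of 0.22 (Gly-ACC), −0.56 (Gly-CCC) and −0.23 (Gly-TCC). The 3′ sums had 0.17, −0.07 and 0.41. Lowest were internal Gly-ACC (−0.95, SE 0.31, edgeR, adjusted p = 0.0341), which stayed under a 2-fold change, and internal Gly-CCC (−0.72, SE 0.29, edgeR, adjusted p = 0.0982).

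Across the 8 libraries, the log2 CPM of the 5′ and the 3′ sums of Gly-GCC had a Pearson correlation of 0.90, which includes the difference between the genotypes. The families of other tRNAs most like the 5′ sum were internal Pro-TGG (0.94), internal iMet-CAT (0.93) and internal Glu-CTC (0.93). Of these, internal Pro-TGG was called higher (log2 fold change 1.44, SE 0.44, edgeR, adjusted p = 0.0248). Those most like the 3′ sum were 3′ fragments of Ala-TGC (0.86), Ala-CGC (0.83) and Arg-CCG (0.81), none of which was called. All these values share the same libraries and scaling and are given as a description.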

How the data were processed

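Total RNA of sorted β-cells (4 wild type, 4 db/db preparations) went into QIAseq miRNA libraries, which were sequenced on a NovaSeq. The authors removed adapters, collapsed reads longer than 16 nt by their molecular identifiers, aligned them to GRCm38.p6 and matched them with bowtie 1 to mature GtRNAdb and mitochondrial tRNAs without mismatches. The authors' deposited table gives each sequence a tRNA name, an unnormalised count per library, an RPM value rounded to whole numbers (treated as a score) and a normalised log2 value, made by a method not given in the sources used here. It also gives the authors' own direction of change in words, which was not used. Genotypes were matched through the library names. The labels give no batch and no pairing. The study describes the n as independent preparations.

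The 3′ class ended in CCA. A fragment was 5′ if it began with 8 bases shared by at least 5 sequences of its tRNA and found further inside no other, and internal otherwise. Positions of 3′ fragments came from the RefSeq gene length with CCA added, and most internal fragments were joined to them by overlaps of at least 8 bases. The whole table of counts was fitted in edgeR 4.0.16 (R 4.3.3) by genotype alone, with TMM factors, filterByExpr (min.count 10, min.total.count 15) and the quasi-likelihood test, with Benjamini-Hochberg adjustment over all features. A call needed an adjusted p below 0.1 and a fold change above 2. CPM of sequences, class sums and isodecoder sums come from separate fits with their own TMM factors and are not additive. Alternatives were RLE factors, no factor, library sizes from the RPM and from the log2 values, DESeq2 1.42.0, the likelihood-ratio test, other filters and thresholds, other class rules and leaving out each library. Intervals and tests cover only the spread between these libraries.

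The members and lists were chosen with earlier results of these data known. Named are the class sums, the 3 most abundant sequences of each class, the 5′ sequences of 26 to 30 nt, up to 5 largest increases and decreases among called sequences of each class, 5′ Glu-CTC and Asp-GTC, the other glycine tRNAs, and the 3 families most like each sum. The 25-nt fragment with T5, the internal 18-nt fragment and the shared 24-nt and 22-nt sequences were named after their values had been seen.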

Additional observations from a re-analysis of the deposited data

Results flagged for a closer look

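Of 142 groups of 4 libraries examined (levels of fragments and sums, shares and ratios), 11 had a library far from the other 3, where chance gives about 1 in 20. In db/db 1 the short 3′ fragments with C66 stood above the other db/db libraries. The level was 119.8 CPM at 17 nt (others 57.8 to 63.1), 195 CPM at 18 nt (79.4 to 92.3), 104 CPM at 19 nt (37.9 to 47.1), 126 CPM at 20 nt (70.2 to 77.6) and 846 CPM for all 3′ fragments of 16 to 20 nt (419.7 to 482). These values overlap in the molecules they count. Without db/db 1 the log2 fold change of that length group was 2.06 and remained called.

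In wild type 4 the 3′ fragment of 26 nt with C66 was at 3.86 CPM, against 0 in the other wild type libraries. In wild type 2 the 5′ fragment of 21 nt with G5 was at 0 CPM (others 8.90 to 10.1), and the share of G5 among 5′ counts was 67.4% (others 85.3% to 88.0%). In db/db 3 the sum of 5′ fragments with T5 was 24.9 CPM (others 101 to 109.6) and the internal 18-nt fragment was at 1.66 CPM (others 14.2 to 14.5). In db/db 2 the internal 23-nt fragment was at 48.7 CPM (others 35.5 to 35.8). The cause of these was not tested.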

How the results depend on the processing

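The scaling changed the most. With library sizes from the deposited log2 values the median sequence moved from 0.00 to −0.51 on the log2 scale and the median family from −0.02 to −0.70. Called sequences fell from 275 to 163 (14 higher, 149 lower) and those of Gly-GCC called higher from 23 to 2. Values that lost their call were the 5′ sum (0.97), the 5′ G5 sum (1.20), 3′ fragments of 16 to 20 nt (1.81) and of 26 to 30 nt (1.25) and 5′ fragments of 16 to 20, 21 to 25 and 26 to 30 nt (0.89, 0.98 and 0.97). Values that turned, none of them called, were the internal sum (−0.48), the group of other ends (−0.48), the T5 sum (−0.92), the A66 fragment (−0.026), the 30-nt T5 fragment (−0.96) and the internal fragments of 22 nt (−0.012) and 23 nt (−0.28). Relative to the median of all families or sequences, the T5 sum (−0.23) and the 30-nt T5 fragment (−0.46) still turned, the internal sum, the A66 fragment and the internal fragments did not, and the group of other ends was not examined. Of the named sequences 11 also lost their call, and all 11 stayed higher, those with G5 of 18 and 23 to 28 nt and those with C66 of 16, 24, 25 and 27 nt. With library sizes from the RPM values the medians were −0.36 and −0.58, with 52 higher and 175 lower sequences, 18 of Gly-GCC higher. The 5′ group of 16 to 20 nt (1.16) and the G5 fragments of 18 nt (1.28) and 27 nt (1.31) lost their call, and the internal sum (−0.26), other ends (−0.26), the T5 sum (−0.50), the 30-nt T5 fragment (−0.49) and the internal 23-nt fragment (−0.11) turned. The internal 20-nt fragment turned to 0.20 without a normalisation factor, to 0.017 without a filter and to 0.026 with at least 10 counts in 4 libraries. Without the fold limit the shared sequences were called (0.85).

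Without single libraries, Gly-GCC sequences called higher numbered 19 to 27, of 31 to 42 tested. Over all sequences 75 to 176 were called higher, of 1847 to 2065 tested. The 5′ sum lay between 1.52 and 2.01 and the 3′ sum between 2.12 and 2.67, all called. The ranges were 1.36 to 1.89 for 5′ fragments of 16 to 20 nt, 0.55 to 1.46 for the A66 fragment, 0.69 to 1.15 for the shared sequences, −0.17 to 0.53 for the 30-nt T5 fragment, −0.27 to 0.45 for the internal 20-nt, 0.099 to 1.19 for the internal 22-nt and −0.064 to 0.79 for the internal 23-nt fragment. The differences in shares, lengths and ratios kept their sign in every alternative, and none passed an adjusted p of 0.05, which says nothing about stability in 4 against 4 libraries. Their size moved by over 1.5 times without single libraries for the 5′ share (−8.99 to −1.76 points), the mean lengths of 5′ (−0.44 to −0.15 nt) and 3′ fragments (−0.94 to −0.32 nt), the log2 ratio of 5′ to 3′ (−0.86 to −0.41) and the G5 share (7.55 to 14.4 points). Adjusted p-values over the other alternatives ran up to 0.320 for the 5′ and 0.0972 for the 3′ sum. No paired analysis was possible because no number in the labels is shared by both genotypes.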
